A study of Rattus norvegicus with 6 samples.

Results

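Mast cell proteases and *Kit*, the receptor that mast cells need for their growth, were followed in skeletal muscle of newborn rats of lower and average birth weight. The set was chosen by name and holds 10 genes, namely *Mcpt1*, *Mcpt2*, *Mcpt4*, *Mcpt8*, *Mcpt10*, *Cma1*, *Cpa3*, *Tpsab1*, *Tpsb2* and *Kit*. Of these, 7 had a row on the array, among 26299 features in all. *Mcpt10* and *Cpa3*, the carboxypeptidase stored with the chymases, matched no row by accession, and *Mcpt2* is not a current symbol of the RefSeq gene table. No row was analysed under these 3 symbols. The gene read as *Mcpt1* has rMCP-2 and rMCP-II among its synonyms, so that the protease meant by *Mcpt2* may have been measured as *Mcpt1*. RNA from the soleus and gastrocnemius muscles, pooled within each pup, of 3 LBW pups (percentile 5 to 25 of birth weight) and 3 ABW pups was hybridized to single-dye NimbleGen arrays, with 1 array per pup. All pups were untreated male Wistar rats of age 1 day, born to normal matings, and the groups were defined by birth weight. The sample characteristics place the ABW pups at percentile 25 to 75, whereas the treatment protocol gives 50 to 75. The litter of each pup is not given in the sources used here.

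Mast cells are resident immune cells that mature in tissue under the Kit ligand (*Kitlg*), and they store proteases in granules together with histamine and heparin. Connective tissue mast cells, the type found in muscle and skin, carry chymases such as the product of *Cma1* and the tryptases of *Tpsab1* and *Tpsb2*. Mucosal mast cells, found mainly in the gut lining, carry other chymases, of which rat mast cell protease II is the best known. In muscle as a whole, fewer mast cells and less RNA per mast cell cannot be told apart.

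The naming of the rat proteases limits the comparison of these types. The row read as *Mcpt1* (NM_172044) belongs to a gene for which the RefSeq table lists both rMCP-I, the chymase of connective tissue mast cells, and rMCP-II, the mucosal chymase, as synonyms. The neighbouring gene *Mcpt1l1*, which had no row, carries rMCP-I and also *Mcpt1* itself as synonyms. The name rMCP-II is given to no other gene of the stretch described below. Which of these proteases the probes of the row detect was not tested, and the classes are therefore given both ways below. *Mcpt8* (NM_021598) likewise has RMCP-10 among its synonyms. The serine proteases of this family lie side by side, and in the order of the RefSeq table (assembly GRCr8) the stretch from *Cma1* to *Mcpt10* holds 26 genes and pseudogenes, of which 6 had a row. *Cma1*, *Mcpt4* and *Vch*, named after vascular chymase, come first among the 6, followed by *Mcpt8*, *Mcpt9* and *Mcpt1*. Close copies such as these may share probe signal, and this could not be checked without the probe sequences.

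The start regions of *Mcpt1*, *Mcpt8* and *Cma1*, the members whose groups did not overlap, are shown with that of *Mcpt4*. The last is shown because *Mcpt1* and *Mcpt4* are much alike in them, while their log2 changes were 0.77 and -0.04 (the difference was not tested). *Mcpt4* was dim on all arrays and its signal over background is unknown, so that a change in it may be missed. Each line gives the 130 bases before the transcription start of the RefSeq entry, written 5′ to 3′ on the strand of the gene. Capitals mark a motif bound by GATA factors (AGATAA or AGATAG or TGATAA or TGATAG, on either strand) and the TATA box motif (TATAAA, on the strand of the gene only), which do not overlap here.
*Mcpt1* (GRCr8, chr15:33841476-33841605, plus strand): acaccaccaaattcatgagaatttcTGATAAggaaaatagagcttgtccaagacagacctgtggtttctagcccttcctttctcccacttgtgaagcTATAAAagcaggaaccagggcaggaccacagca
*Mcpt4* (GRCr8, chr15:33471361-33471490, plus strand): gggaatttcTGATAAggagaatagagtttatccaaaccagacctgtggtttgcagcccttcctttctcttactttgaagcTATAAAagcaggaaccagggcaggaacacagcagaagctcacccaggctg
*Mcpt8* (GRCr8, chr15:33769519-33769648, plus strand): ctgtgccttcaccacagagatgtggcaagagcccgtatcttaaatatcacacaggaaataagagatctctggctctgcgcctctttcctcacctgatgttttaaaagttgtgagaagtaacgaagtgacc
*Cma1* (GRCr8, chr15:33390134-33390263, minus strand): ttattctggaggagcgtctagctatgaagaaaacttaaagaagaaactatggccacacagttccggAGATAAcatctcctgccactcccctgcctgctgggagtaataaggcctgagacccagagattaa
With *Mcpt4* moved by 16 bases and no gaps, 76 of 114 bases matched between *Mcpt1* and *Mcpt4* (66.7%), compared to 36.9% at the best position between *Mcpt1* and *Mcpt8* and 36.7% between *Mcpt1* and *Cma1*. The GATA motif began 105 bases before the start in *Mcpt1*, 121 in *Mcpt4* and 64 in *Cma1*, and no such letters were found in this window of *Mcpt8*, *Tpsab1*, *Tpsb2* or *Kit*. TATAAA began 33 bases before the start in *Mcpt1* and 50 in *Mcpt4*. The shift of 16 bases that lines up their GATA motifs therefore leaves TATAAA and the bases after it out of line. Gaps were not tried, so that 66.7% is a lower limit for the likeness of *Mcpt1* and *Mcpt4*. Among the 33469 start regions of the RefSeq table, 14.2% held a GATA motif and 4.65% held TATAAA in the same 130 bases.

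The deposited values are log2 signals on which a rise by 1 is a doubling of brightness, and levels of different genes cannot be set against each other because each has its own probes. Array medians ran from 8.70 to 8.76. The markers of the labelled tissue were bright, and the mean log2 signal of 9 skeletal muscle genes lay between 14.56 and 14.69 in every pup. A feature was called when its mean differed at least 1.5-fold between the groups and its p before adjustment was under 0.05, the thresholds in the methods of the study. The p came from limma, a linear model with moderated variance, which those methods do not name. By this rule 4.27% of the 26299 features were called. After Benjamini-Hochberg adjustment limma called 0 features, and the smallest adjusted p was 0.214, while 3250 features (12.4%) had an unadjusted p under 0.05, as had 3 of the 7 members. Every call below is therefore at the unadjusted threshold. On the first principal component over all features, LBW 2 (-0.3) lay apart from LBW 1 (34.0) and LBW 3 (37.8) and nearer to the ABW pups (-31.2 to -11.9).

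Of the 7 members, *Mcpt1* and *Mcpt8* were higher in LBW muscle and passed the threshold, whereas no member passed it in the lower direction. Over all features 2.38% were called higher and 1.89% lower. *Cma1* and *Kit* had lower means in LBW muscle without passing, and *Tpsab1*, *Tpsb2* and *Mcpt4* differed by less than the spread between pups. The values of the 3 LBW pups did not overlap those of the 3 ABW pups for *Mcpt1*, *Mcpt8* and *Cma1*, that is for 3 of 7 members, compared to 17.4% of all features (7.27% with the LBW pups higher and 10.1% with them lower). The median log2 change of the 7 members was -0.14, beside -0.02 for all features.

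**Figure D1:**
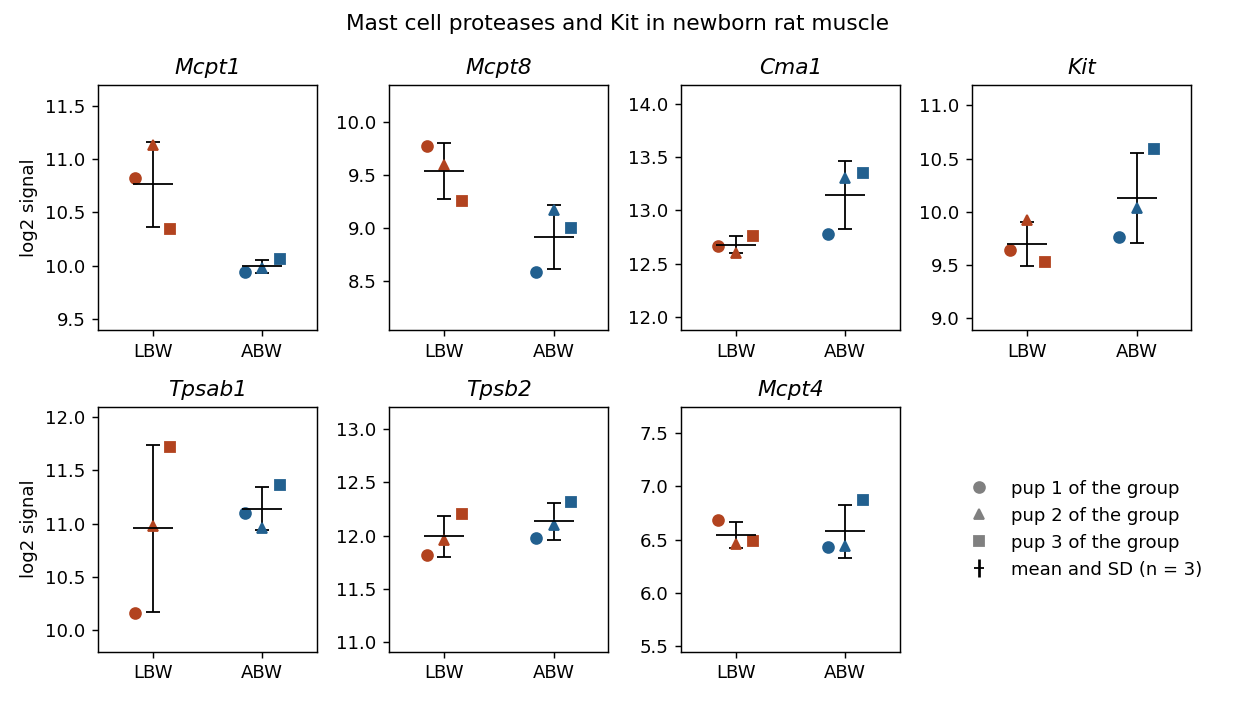
Log2 signal of the 7 members in each pup, with 1 panel per gene, each spanning the same number of log2 units on the vertical axis but at a different level. Symbols are single pups, and the horizontal line with its bar is the mean and SD of 3 pups. All LBW pups lie above all ABW pups for *Mcpt1* and *Mcpt8* and below them for *Cma1*, while the other 4 genes overlap.

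*Mcpt1* encodes a chymase of the granule. It was at a log2 signal of 10.82, 11.13 and 10.34 in LBW 1, 2 and 3 and at 9.94, 9.97 and 10.06 in ABW 1, 2 and 3. The ABW pups were close to each other, and even the lowest LBW pup, LBW 3, lay 0.28 above the highest ABW pup. The mean of the LBW pups was 10.76 ± 0.40 (SD, n = 3) and that of the ABW pups 9.99 ± 0.06 (SD, n = 3). The log2 change was 0.77 (SE 0.20, 95% interval 0.30 to 1.24), a fold change of 1.71, with an unadjusted p of 0.00664 and an adjusted p of 0.276 by limma. When single pups were omitted the log2 change stayed between 0.59 and 0.98, and *Mcpt1* was called in all 6 fits. The lowest value, 0.588 without LBW 2, was only just past the fold change criterion.

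*Mcpt8* encodes a granule protease whose mouse counterpart marks basophils. The log2 signal was 9.77, 9.60 and 9.25 in LBW 1, 2 and 3 and 8.59, 9.17 and 9.0 in ABW 1, 2 and 3. The groups did not overlap, but LBW 3 and ABW 2 were only 0.09 apart, less than the SD within either group. The mean of the LBW pups was 9.54 ± 0.26 (SD, n = 3) and that of the ABW pups 8.92 ± 0.30 (SD, n = 3). The log2 change was 0.62 (SE 0.20, 95% interval 0.15 to 1.09), a fold change of 1.54, with an adjusted p of 0.315 by limma. The call was lost without LBW 1 (0.51), without ABW 1 (0.46) and, with all pups, by the test that the methods name.

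*Mcpt9*, the neighbour of *Mcpt1* and a relative of *Mcpt8*, is not a member but had a row (NM_019323). It was at 8.57, 8.27 and 8.35 in LBW 1, 2 and 3 and at 7.64, 7.86 and 8.14 in ABW 1, 2 and 3 on the log2 scale. Every LBW pup was above every ABW pup. The log2 change of 0.52 (SE 0.15, adjusted p = 0.305 by limma) was short of the fold change criterion, and without ABW 3 it was 0.65 and was called. The 3 measured genes at the *Mcpt10* end of the stretch, *Mcpt8*, *Mcpt9* and *Mcpt1*, each had a higher mean in LBW muscle. *Cma1*, *Mcpt4* and *Vch* at the other end each had a lower one, although *Mcpt4* differed by only -0.04 and turned to higher without LBW 2 or ABW 3. Only 6 of the 26 genes of the stretch had a row, and this split was not tested. *Mcpt8* and *Mcpt9* ran together over the 6 pups (Pearson r = 0.87) and may share probe signal, so that they may not be separate readings. *Vch*, which was read only for its place in the stretch, had a log2 change of -0.74 (SE 0.34) and was not called.

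Among the chymases of connective tissue mast cells, *Cma1* (NM_013092) was at a log2 signal of 12.67, 12.60 and 12.76 in LBW 1, 2 and 3. In ABW 1, 2 and 3 it was at 12.78, 13.30 and 13.35. ABW 1 lay only 0.02 above LBW 3, so that the separation of the groups rests on ABW 2 and ABW 3. The mean of the LBW pups was 12.68 ± 0.08 (SD, n = 3) and that of the ABW pups 13.14 ± 0.32 (SD, n = 3). The log2 change was -0.46 (SE 0.17, 95% interval -0.86 to -0.07, adjusted p = 0.352 by limma). This is a fold change of 0.725, which falls short of the fold change criterion although the unadjusted p was 0.0287. Without ABW 1 the log2 change was -0.65 and *Cma1* was called lower.

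*Mcpt4* (NM_019321), a chymase grouped with the connective tissue type after its mouse counterpart, was dim on all arrays. Its log2 signal was 6.68, 6.46 and 6.49 in LBW 1, 2 and 3 and 6.43, 6.44 and 6.87 in ABW 1, 2 and 3, close to the 25th percentile of all features (6.21). The groups overlapped, with a log2 change of -0.04 (SE 0.15, 95% interval -0.39 to 0.31), and the deposited values do not tell how far such a signal lies above background.

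The tryptases are the other main granule proteases of connective tissue mast cells. *Tpsb2* (NM_019180) was at a log2 signal of 11.82, 11.96 and 12.20 in LBW 1, 2 and 3 and at 11.98, 12.10 and 12.32 in ABW 1, 2 and 3. The groups overlapped, and the log2 change was -0.14 (SE 0.14, 95% interval -0.47 to 0.20). *Tpsab1* (NM_019322) was at 10.16, 10.98 and 11.72 in LBW 1, 2 and 3 and at 11.10, 10.96 and 11.36 in ABW 1, 2 and 3. Here the LBW pups held both the lowest and the highest value of all 6 pups, and their SD (0.78) was larger than that of the ABW pups (0.20). The log2 change of -0.19 (SE 0.37) had an interval from -1.09 to 0.71, wide enough to hold a fall of more than the fold change criterion as well as a rise. Without LBW 1 the direction turned, to 0.21.

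*Kit* (NM_022264) encodes the receptor tyrosine kinase for the Kit ligand. Its log2 signal was 9.64, 9.93 and 9.53 in LBW 1, 2 and 3 and 9.76, 10.04 and 10.59 in ABW 1, 2 and 3. ABW 3 was the highest of all pups, and LBW 2 lay above ABW 1, so that the groups overlapped. The mean of the LBW pups was 9.70 ± 0.20 (SD, n = 3) and that of the ABW pups 10.13 ± 0.42 (SD, n = 3). The log2 change was -0.43 (SE 0.22, 95% interval -0.97 to 0.11, adjusted p = 0.489 by limma), and it moved between -0.20 without ABW 3 and -0.62 without ABW 1, where *Kit* was called lower. *Kitlg* (NM_021843), the ligand, had a log2 change of -0.36 (SE 0.20) and was not called.

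**Figure D2:**
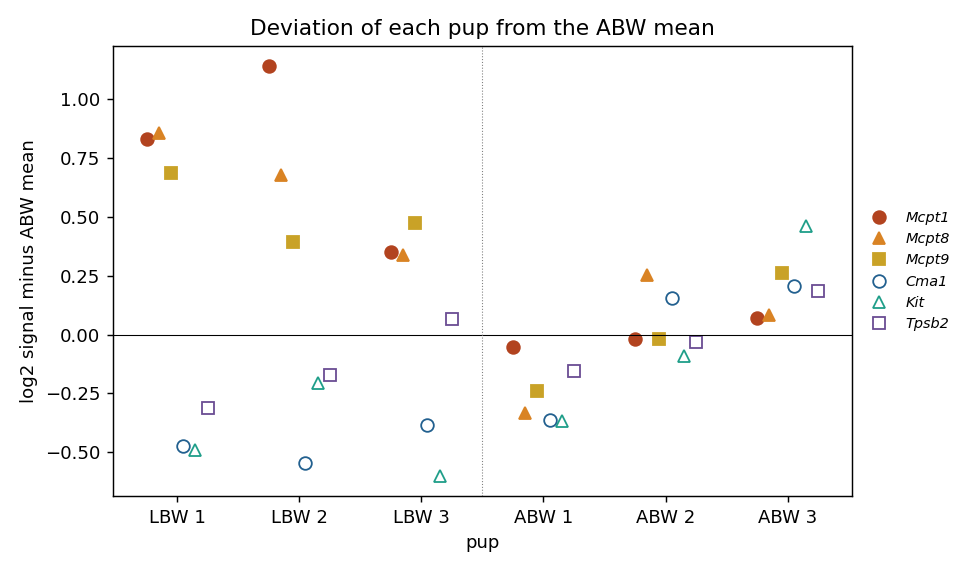
Log2 signal of 6 genes in each pup after subtraction of the mean of the 3 ABW pups, on a vertical axis of log2 units. Filled symbols are *Mcpt1*, *Mcpt8* and *Mcpt9*, and open symbols are *Cma1*, *Kit* and *Tpsb2*. In every LBW pup the 3 filled symbols lie above 0, and *Cma1* and *Kit* lie below 0. In ABW 1 all 6 genes lie below 0.

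Exact permutation tests of single genes (2-sided) cannot give a p under 0.1 with 3 pups against 3. They gave this smallest value for *Mcpt1*, *Mcpt8* and *Cma1*, 0.2 for *Kit*, 0.4 for *Tpsb2*, 0.8 for *Tpsab1* and 1.0 for *Mcpt4*.

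The question of the protease types was whether connective tissue and mucosal proteases differed in their change with birth weight. With *Mcpt1*, *Mcpt4*, *Cma1*, *Tpsab1* and *Tpsb2* taken as connective tissue type, the mean log2 change of the 5 genes was -0.01. This mean includes *Mcpt1* at 0.77, which is placed here by its symbol only. Only *Mcpt8* was left for the mucosal type (0.62), and the difference between the types was -0.63. Per pup, set to 0 for the ABW mean, this difference was -1.02, -0.65 and -0.23 in LBW 1, 2 and 3 and 0.18, -0.29 and 0.11 in ABW 1, 2 and 3, so that LBW 3 overlapped with ABW 2. The synonym rMCP-II, which no other gene of the stretch carries, places *Mcpt1* in the mucosal type instead. Counted so, the 4 connective tissue genes had a mean of -0.21 and the mucosal pair had a mean of 0.70, a difference of -0.90. Counted in this way the difference, set to 0 for the ABW mean, was -1.26, -1.16 and -0.30 in LBW 1, 2 and 3 and 0.02, -0.17 and 0.15 in ABW 1, 2 and 3. The groups did not overlap, and LBW 3 was the LBW pup in which the types parted least. The types hold few genes and the set was chosen with results known, so that no test of this difference was made.

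Of the 5 pairs of members set against each other, *Mcpt1* and *Cma1* had the largest mean difference (1.24), although *Mcpt8* and *Cma1* left a wider gap between the groups. The difference of their log2 signals, set to 0 for the ABW mean, was 1.30, 1.68 and 0.73 in LBW 1, 2 and 3 and 0.31, -0.17 and -0.14 in ABW 1, 2 and 3. For *Mcpt8* and *Cma1* the LBW pups were at 1.33, 1.22 and 0.72 and the ABW pups at 0.03, 0.10 and -0.13. For *Cma1* and *Kit* it was 0.02, -0.33 and 0.22 in the LBW pups and 0.00, 0.24 and -0.25 in the ABW pups, and the groups overlapped. These pairs were picked after their values were seen and carry no test.

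**Figure D3:**
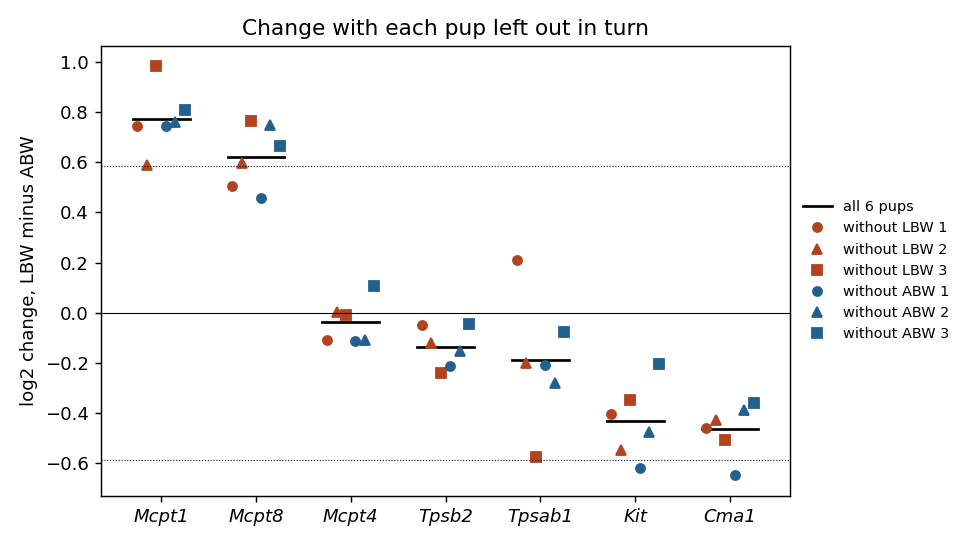
Log2 change (LBW minus ABW, vertical axis) of the 7 members with all 6 pups (black line) and with each pup left out in turn (symbols). The dotted lines are the fold change criterion of 1.5 in either direction. *Mcpt1* stays above the upper line throughout, though only just without LBW 2. *Mcpt8* drops under it without LBW 1 or ABW 1, and *Kit* and *Cma1* cross the lower line only without ABW 1.

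Beside the members, 27 of 35 listed genes of mast cells had a row, among them the receptor for IgE and the enzymes for histamine and lipid mediators. Of the 27, 21 had a lower mean in LBW muscle (77.8%, compared to 55.6% of all features) and 6 a higher mean, with a median log2 change of -0.25. Only *Hs3st1*, which adds sulfate to heparan sulfate and is also active outside mast cells, was called, lower by 1.20 on the log2 scale (SE 0.15, adjusted p = 0.214 by limma). It is among the genes the study itself picked from these arrays, so that it is no independent evidence for the list. Its log2 signal was 9.15, 8.61 and 8.90 in LBW 1, 2 and 3 and 9.95, 10.14 and 10.17 in ABW 1, 2 and 3, with no overlap. *Ms4a2*, the beta chain of the receptor for IgE, was at 9.56, 9.70 and 8.90 in LBW 1, 2 and 3 and at 9.63, 10.05 and 10.69 in ABW 1, 2 and 3 (log2 change -0.74, SE 0.32). The groups overlapped at ABW 1. *Fcer1a*, the alpha chain of the same receptor, was at 5.88 in ABW 1 and at 7.98 and 8.59 in ABW 2 and ABW 3, around the LBW values of 7.16 to 7.83.

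*Hdc*, which makes histamine, had a log2 change of -0.40 (SE 0.21), and *Srgn*, which carries the sugar chains that hold the proteases in the granule, had -0.29 (SE 0.19). *Gata2*, a transcription factor of mast cells and their precursors, had -0.11 (SE 0.21). None of these 3 genes was called. *Hpgds*, the prostaglandin D synthase of mast cells, and *Csf2rb* were the other genes with an unadjusted p under 0.05, at log2 changes of -0.58 and -0.44, short of the fold change criterion. *Mrgprb3* (-0.86) and *P2rx1* (-0.74) had the largest changes among the genes not called, apart from *Ms4a2*. ABW 1 had much weight in this group. Without it 9 of the 27 genes were called lower (*Fcer1a*, *Ms4a2*, *Hdc*, *Hpgds*, *Mrgprb3*, *Cd200r1*, *Csf2rb*, *Hs3st1* and *Milr1*), compared to 2.79% of all features called lower in the same fit (2.55% were called higher).

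**Figure D4:**
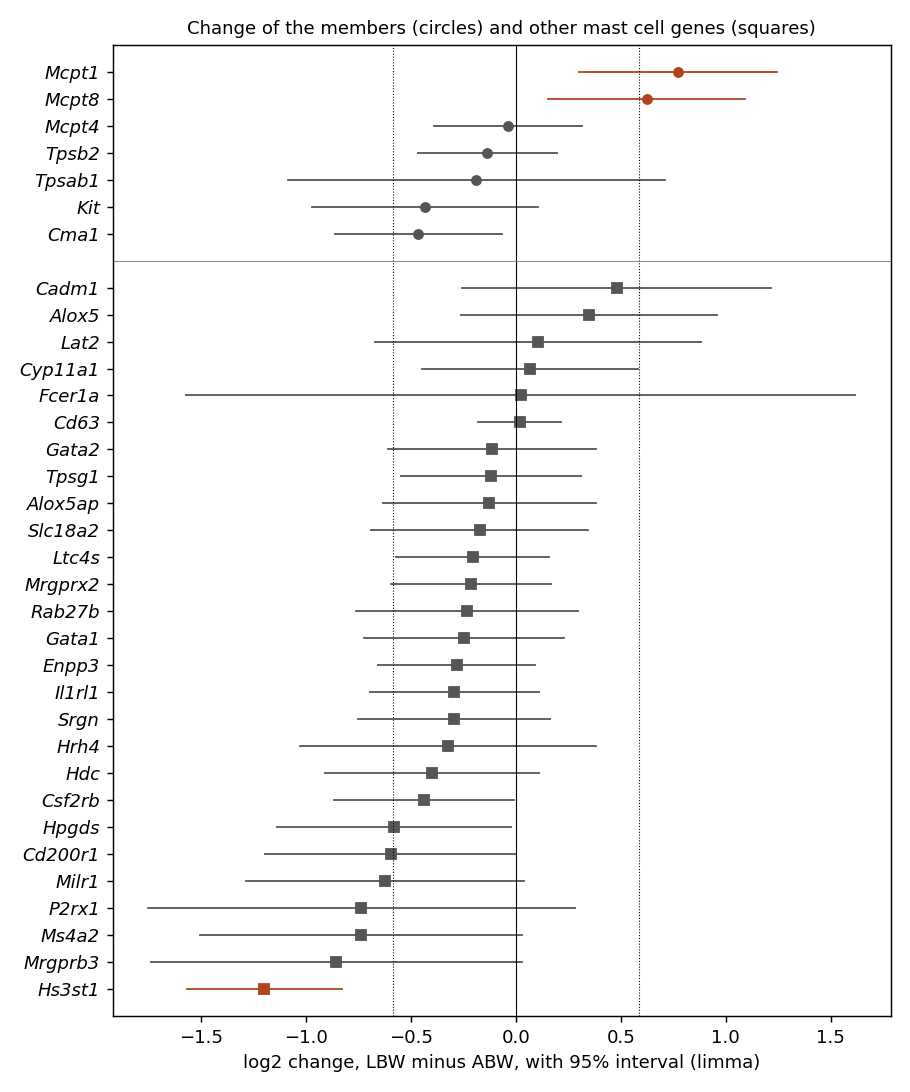
Log2 change (LBW minus ABW, horizontal axis) with its 95% interval by limma for the 7 members (circles) and 27 other mast cell genes (squares). The dotted lines are the fold change criterion of 1.5 and called genes are in red. *Mcpt1* and *Mcpt8* lie on the right of 0 with intervals that do not reach it, while 21 of the 27 other genes lie on the left.

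Over the 6 pups, *Kit* had the pattern most like that of *Rpe65* (Pearson r = 0.995), *Or52b1* (0.988), *Cd302* (0.987), *Enpp3* (0.987) and *Bbc3* (0.983) among 9626 other genes with a symbol. With so few pups such values are frequent, and 232 genes had an r above 0.9. *Enpp3*, a surface enzyme of mast cells and basophils, was at a log2 signal of 11.81, 11.94 and 11.79 in LBW 1, 2 and 3 and at 11.86, 12.10 and 12.43 in ABW 1, 2 and 3. *Ms4a2* (0.95) and *Kitlg* (0.93) also ran with *Kit*. *Cma1* ran with *Csf2rb* (0.99), *Mrgprb3* (0.96), *Hpgds* (0.94) and *Hdc* (0.94) of the mast cell list, and with *Kit* at 0.79. These are the highest values of the list, and 206 genes with a symbol had an r above 0.9 with *Cma1*. Over the whole mast cell list r ranged from -0.30 (*Cadm1*) to 0.99 for *Cma1*. For *Kit* it ranged from -0.59 (*Cadm1*) to 0.99 (*Enpp3*). *Mcpt1* ran with *Mcpt8* (0.85) and against *Cma1* (-0.70), while its r with *Kit* was weak (-0.32). With *Mcpt1*, 119 genes with a symbol had an r above 0.9, higher than that of *Mcpt8*. All these correlations are over the same 6 arrays and carry the group difference.

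Of 19 genes of Kit signalling with a row (of 25 listed), 0 were called, 11 had a higher and 8 a lower mean in LBW muscle, and the median log2 change was 0.01. At an unadjusted p under 0.05 there were 2 genes by limma, and both missed the fold change criterion. *Lyn*, a kinase next to the receptor for IgE, was lower by 0.33 (SE 0.11). *Gab2*, an adaptor of Kit and IgE receptor signals, was higher by 0.23 (SE 0.08). Both genes were without overlap between the groups, as were 17.4% of all features. *Ptpn6*, the phosphatase that damps Kit, had the largest log2 change of the list (-0.42, SE 0.28), followed by *Kitlg* and *Plcg2* (-0.34, SE 0.20).

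Other granule serine proteases, 8 of 24 listed, were measured to see whether the family moved as a whole. None was called, 1 had an unadjusted p under 0.05 (*Mcpt9*), and the median log2 change was -0.02. The 5 granzymes of this list, which belong to killer lymphocytes, had log2 changes between -0.05 (*Gzmb*) and 0.25 (*Gzmf*), and 5 of the 8 genes were among the dimmest 25% of all features. *Cfd* (complement factor D, made mainly by fat cells) had -0.39 (SE 0.39).

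Basophil and eosinophil markers had 6 rows of 10 listed, and *Mcpt8*, which marks basophils in the mouse, can be read beside them. Only *Alox15*, a lipoxygenase that the study also picked from these arrays, was called, lower by 1.81 (SE 0.54, adjusted p = 0.306 by limma). *Prg2*, the major basic protein of eosinophils, was at a log2 signal of 7.29, 6.92 and 6.78 in LBW 1, 2 and 3 and at 6.57, 6.89 and 6.67 in ABW 1, 2 and 3, a change of 0.29 (SE 0.16). *Ccr3*, their chemokine receptor, was low in all pups (5.57 to 6.05).

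Markers of other tissues differed between the groups too. The called ones include genes that the study itself picked from these arrays, such as *S100a8*, *Mmp8*, *Spp1*, *Ibsp*, *Lep* and *Pparg*. Their counts are therefore no independent evidence. Over all features 2.38% were called higher and 1.89% lower. The mean log2 signal of 6 neutrophil precursor genes was 8.79 to 9.92 in LBW and 7.88 to 8.07 in ABW pups, with 4 of the 6 called higher. For 10 bone genes it was 8.62 to 11.89 in LBW and 8.04 to 8.30 in ABW pups, with 5 called higher. LBW 2 was the lowest LBW pup for bone (8.62) and for neutrophil precursors (8.79), and it was the highest of all pups for *Mcpt1* (11.13). For *Mcpt8* LBW 2 (9.60) lay between the other LBW pups, and for *Mcpt9* (8.27) it was the lowest LBW pup. For 10 adipocyte genes, all with a lower mean and 3 called, the mean signal was 10.94, 11.00 and 10.09 in LBW 1, 2 and 3. In ABW 1, 2 and 3 it was 10.86, 11.95 and 11.70. ABW 1 thus lay within the LBW values for the adipocyte genes, as it lay within those of *Kit* and next to those of *Cma1*. The part of fat, bone or marrow cells in the values of the mast cell genes was not tested.

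In the connective tissue, where muscle mast cells lie, none of 7 fibroblast genes was called, 0 had an unadjusted p under 0.05 by limma, and their mean log2 signal was 14.30 to 14.40 in LBW and 14.38 to 14.44 in ABW pups. None of 7 macrophage genes was called either, with 0 at an unadjusted p under 0.05 by limma. Of 3 endothelial genes 0 were called and 1 had an unadjusted p under 0.05 by limma. Skin, which is rich in mast cells, was followed by 4 keratin genes, whose mean log2 signal was 8.23 in ABW 2 and 6.11 to 6.49 in all other pups. In ABW 2, *Mcpt1* (9.97) and *Cma1* (13.30) were between the values of ABW 1 and ABW 3, and *Mcpt8* (9.17) was the highest of the ABW pups. The part of skin in these values was not tested. *Kit* is also carried by interstitial cells of Cajal, whose 2 listed markers had no row, and by melanocytes and blood progenitors. *Sox10* (melanocytes and nerve sheath) had a log2 change of -0.06 (SE 0.16). Of the progenitor markers, *Lmo2* had -0.01 (SE 0.13), and *Runx1*, which also marks bone and marrow cells, was called higher at 0.68 (SE 0.14).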

How the data were processed

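Muscle RNA from 6 pups (3 LBW, 3 ABW) was hybridized to NimbleGen arrays that carry 5 probes per transcript. The values deposited by the authors are log2 signals made by in-house R scripts with Bioconductor packages, and the submitters' processing notes name RMA. The authors' normalization and the summary of the probes are already contained in the values, and differences between arrays that it removed cannot be seen. Of 26419 rows, 9747 (36.9%) were matched to a symbol by RefSeq accession (assembly GRCr8). Rows of a symbol were averaged, which left 26299 features, and each member had a single row. LBW and ABW were compared with limma 3.58.1 in R 4.3.3, 2-sided, and p-values were adjusted over all features by Benjamini-Hochberg. The fit was tested on simulated data. The members, gene lists and classes were chosen with earlier results of these data known. Named genes are the members, the genes of each list that were called or changed most (at most 4), a fixed set of mast cell genes and the 5 genes most like *Kit*; likeness to *Cpa3* could not be given, and the other marker lists are given as counts. Arrays carry no count depth, and their number limits the precision. The p-values measure the spread between these pups. Alternatives tried were a block for the replicate number, each pup left out, quantile normalization, median centring, leaving out the dimmest 25% of features, an intensity trend, robust variance, array weights, the methods' test, every row by itself, a fold change of at least 2, and other classes of *Mcpt1*, *Mcpt4* and the *Mcpt8* family.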

Additional observations from a re-analysis of the deposited data

How the results depend on the processing

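All alternatives were planned, but the members, gene lists and classes to which they apply had been chosen with earlier results of these data known. The signal over background is unknown, which limits the dimmest genes such as *Mcpt4*. The count of called members, 2, was 1 by the methods' test, which did not call *Mcpt8*, and 0 at a fold change of at least 2, and between 1 and 3 without any single pup. It was 2 under every other alternative run. The count over all features, 1124, was 584 by the methods' test and 335 at a fold change of at least 2, and between 798 and 1546 without any single pup. The count of other mast cell genes, 1, was 4 with median centring and without the dimmest 25%, 5 with an intensity trend or array weights, and between 1 and 9 without any single pup. The cause was not tested, except that the stricter fold change necessarily loses calls. The difference between the protease types stayed between -0.83 and -0.44 without any single pup and was -0.63 without *Mcpt4*. With the *Mcpt8* family left out no mucosal gene remained and no value could be given.

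Of the members, *Mcpt4* ranged from -0.11 to 0.11 without any single pup and turned to higher without LBW 2 (0.0041) and ABW 3, and *Tpsab1* ranged from -0.57 to 0.21 and turned without LBW 1. *Fcer1a* ranged from -0.78 (without ABW 1) to 0.57 and turned to lower also without LBW 3 (-0.14) and with array weights (-0.19). *Gata2* ranged from -0.24 to 0.090 and turned without LBW 3. Whether the replicate numbers pair the pups is not settled by these values. Pups of the same number deviated from their group means with correlations of 0.087, 0.104 and 0.055. These were low, but above those of pups with different numbers (-0.096 to 0.021). With the replicate block, 1230 features, 2 members and 4 other mast cell genes were called.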
